A study of Homo sapiens with 2 samples.

Results

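The Hippo pathway is a kinase cascade that restrains a pair of transcriptional coactivators, YAP (gene YAP1) and TAZ (gene WWTR1). The LATS kinases phosphorylate both coactivators, which are then held in the cytoplasm by 14-3-3 proteins or degraded; unphosphorylated YAP and TAZ enter the nucleus and activate transcription through the TEAD DNA-binding factors. In liver the pathway is known for limiting organ size and for its loss of control in hepatocellular carcinoma (HCC). Most of this control acts on phosphorylation and location, which RNA levels do not measure.

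The 10 genes described here were taken by name from the 58174 genes with a TPM value in both libraries. They comprise the coactivators YAP1 and WWTR1, the transcription factors TEAD1, TEAD2, TEAD3 and TEAD4, the kinases LATS1 and LATS2, and the LATS and YAP regulators AMOTL2 and AJUBA. Each symbol was found once. The RNA came from PLC-8024, a human HCC cell line of liver, transduced by lentivirus with GDF1, a secreted ligand of the TGF-β superfamily (PLC-8024-GDF1, genotype GDF1-overexpression), or with a control vector (PLC-8024-CTR, genotype Control), and selected as stable cells in puromycin. There was 1 library per group, so no difference below has a replicate check and no spread is known.

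TPM corrects a transcript's abundance for the length of each gene and for the library's total, so levels can be set side by side between genes, but it keeps no sequencing depth and no counting interval can be given. Changes are log2((TPM + 1)/(TPM + 1)) with PLC-8024-GDF1 above the line, except where a plain ratio is stated. Adding 1 TPM makes the change of a low gene smaller than its plain ratio. A gene is said to have fallen or risen when it passed 2-fold on this scale. As a check of the introduced gene, GDF1 had 4.64 TPM in the GDF1 library against 2.10 TPM in the control. Its log2 change of 0.87 stayed within 2-fold. CERS1, which spans it, had 9612 and 13.3 TPM in the same order, a log2 change of 9.39. How reads of the introduced GDF1 were divided between GDF1 and CERS1 was not tested. The hepatocyte markers were present: all 11 reached 1 TPM, and they summed to 9953 TPM in control cells and to 6381 TPM in GDF1 cells. Of these 11, 7 fell (63.6%) and none rose. Over the whole series 14929 genes reached 1 TPM, of which 9.61% fell and 4.82% rose. Of the markers of other cell types, 4 of 17 reached 1 TPM, namely LYZ (298.0 and 213.5 TPM) and CD68 (33.1 and 13.2 TPM) of leukocytes, PECAM1 (23.2 and 22.2 TPM) of endothelium and COL3A1 (3.22 and 1.23 TPM) of fibroblasts. COL1A1 had 0.20 and 0.84 TPM, while PTPRC of leukocytes, COL1A2 and DCN of fibroblasts, and VWF, KDR and TEK of endothelium stood at the value that replaces 0 in both libraries. The part of the fall in hepatocyte markers in the results below was not tested.

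TEAD factors bind the letters GGAATG, and the sequences that follow show where those letters, in capitals on either strand, lie before the start sites of YAP1, of AMOTL2 and AJUBA, and of CCN2, a textbook target of YAP and TEAD whose level is given further on. The promoter windows are RefSeq's (GRCh38.p14), and their places on GRCh37, the build of the deposited files, come from an exact match to that genome. They read 5′ to 3′ on the strand of the gene. For YAP1 (chr11:101980928-101981177, plus strand) and CCN2 (chr6:132272513-132272762, minus strand) the 250 bases before the start are printed. For AMOTL2 (chr3:134093341-134093370, minus strand) and AJUBA (chr14:23446093-23446122, minus strand) only the 30 bases around the match are printed, before the inner one of 2 start sites in each gene.
YAP1: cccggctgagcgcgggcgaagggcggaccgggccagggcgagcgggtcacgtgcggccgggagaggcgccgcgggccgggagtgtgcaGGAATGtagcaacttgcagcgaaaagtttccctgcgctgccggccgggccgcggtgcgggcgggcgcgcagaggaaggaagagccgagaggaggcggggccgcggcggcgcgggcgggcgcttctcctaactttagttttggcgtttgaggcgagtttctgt
CCN2: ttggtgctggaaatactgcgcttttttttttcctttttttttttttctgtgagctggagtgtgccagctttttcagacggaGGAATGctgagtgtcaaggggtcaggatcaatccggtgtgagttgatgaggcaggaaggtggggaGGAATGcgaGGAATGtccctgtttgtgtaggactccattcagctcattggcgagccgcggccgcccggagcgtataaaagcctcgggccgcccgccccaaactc
AMOTL2: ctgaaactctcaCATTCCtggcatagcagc
AJUBA: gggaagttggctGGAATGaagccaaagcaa

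The letters begin 162 bases before the YAP1 start, 69 before that AMOTL2 start (as CATTCC, the other strand) and 59 before that AJUBA start. In CCN2 they stand 3 times, at 169, 104 and 95 bases before the start. Windows of 250 bases were held for 8 of the 10 genes, TEAD1 and TEAD4 being without one, and 3 of their 13 windows contained the letters (23.1%). Of 15 windows of 14 other listed target genes, 7 contained them (46.7%), against 11.9% of all 35116 windows. These 14 are targets whose window was used, whatever their level, and are not the same 14 that reached 1 TPM, described below. Windows of listed genes on chromosome 8 were left out, an exclusion not made for the 35116 windows. ANKRD1 and TGFB2, under 1 TPM in both libraries, are among the 7 with the letters. Of the targets that fell, F3 and MYOF are not, and GADD45A had no window to search. A match is a description of the letters and not a measured binding site.

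YAP1 (ENSG00000137693, GRCh37 chromosome 11, 101981178 to 102104155, plus strand, 9 exons) is the coactivator after which the pathway's output is usually named. Its level was 8.72 TPM in the control library and 1.58 TPM in the GDF1 library, a plain TPM ratio of 0.181, and its log2 change was -1.91. The GDF1 library was thus the low one, and of the 14929 genes that reached 1 TPM in one library or the other, 1.49% had a lower change. YAP1 stood above 50.7% of these genes in PLC-8024-CTR and above 18.7% in PLC-8024-GDF1. In bulk RNA, fewer cells with a transcript and less of it per cell cannot be told apart.

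WWTR1 (ENSG00000018408, chromosome 3, 149235022 to 149454501, minus strand, 7 exons) encodes TAZ, the paralog of YAP. Its level was 3.75 TPM in the control library and 2.85 TPM in the GDF1 library, and the log2 change of -0.31 stayed within 2-fold. This direction held with TPM rescaled so that the median ratio of genes was 1 (-0.15) and turned to 0.06 once the trend of change with GC content was removed. YAP1 was 2.32 times WWTR1 in PLC-8024-CTR and 0.556 times WWTR1 in PLC-8024-GDF1, so the order of the coactivators differed between the libraries. Added up, the pair had 12.5 and 4.43 TPM, and the log2 change of the sum was -1.31. YAP1 made up 69.9% of that sum in PLC-8024-CTR and 35.7% in PLC-8024-GDF1.

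The start of YAP1 is overlapped on the opposite strand by the long non-coding RNA AP001527.2, which shares 11 exonic bases with YAP1 and covers all of the YAP1 sequence printed above. AP001527.2 had 2.12 TPM in the control library and 3.68 TPM in the GDF1 library. Its log2 change of 0.59 was within 2-fold and opposite in sign to that of YAP1. Adding both genes up gave 10.8 and 5.26 TPM, a log2 change of -0.92. The use of strand in counting is not given in the sources used here, so reads from the shared bases cannot be told apart. Within 1 Mb of YAP1, 7 other genes reached 1 TPM. Of these only TMEM123 fell (26.2 to 12.4 TPM, log2 change -1.02) and none rose, where 9.61% of all genes fell and 4.82% rose. The median log2 change of the 7 was 0.19, against -0.20 over all genes. BIRC2 and BIRC3, apoptosis inhibitors that lie beside YAP1, had 4.13 and 5.71 TPM, and 0.79 and 1.05 TPM, in the control and GDF1 libraries respectively. These 3 neighbours were chosen after their values were seen.

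**Figure D1:**
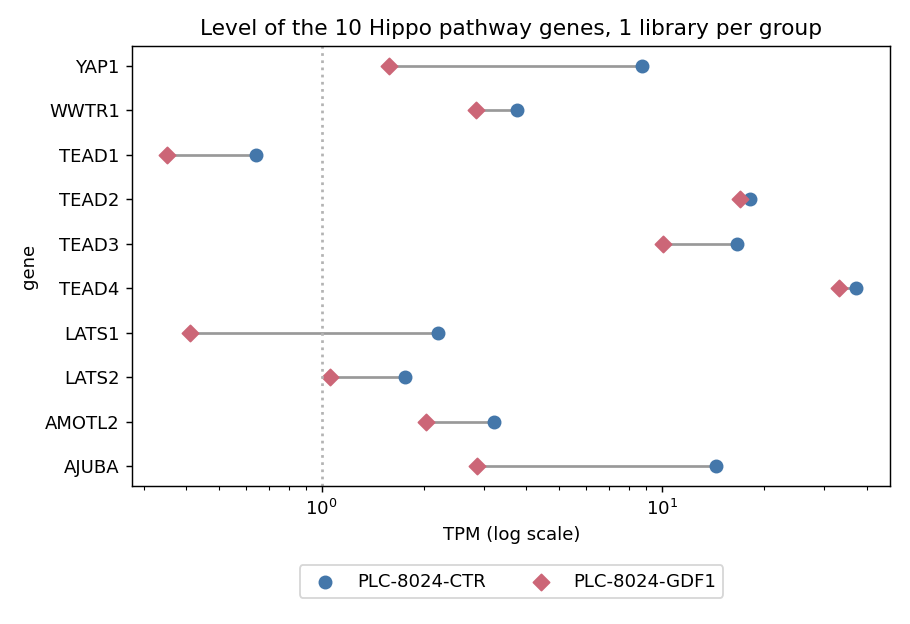
TPM of the 10 genes (log axis) in the single PLC-8024-CTR library (circles) and the single PLC-8024-GDF1 library (diamonds), with a dotted line at 1 TPM. Every diamond lies left of its circle; the gaps are widest for YAP1, LATS1 and AJUBA, and TEAD4, at 37.2 and 33.2 TPM, is the highest gene in both libraries.

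The TEAD factors carry the DNA-binding part of the complex and share one DNA motif. TEAD4 (ENSG00000197905, chromosome 12, 3068496 to 3149842, plus strand) had the highest level of the 10 genes, 37.2 TPM in control cells and 33.2 TPM in GDF1 cells. It stood above 79.4% of genes with at least 1 TPM in each library. TEAD2 (ENSG00000074219, chromosome 19, 49843852 to 49865714, minus strand) came next with 18.2 and 16.95 TPM. The log2 changes of TEAD4 (-0.16) and TEAD2 (-0.10) were above the median of all genes (-0.20), and both became positive with rescaled TPM (0.04 and 0.10).

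TEAD3 (ENSG00000007866, chromosome 6, 35441374 to 35464856, minus strand) went from 16.6 to 10.1 TPM. Its log2 change of -0.67 was the largest in size among the TEAD genes and stayed within 2-fold, and removing the GC trend left it at -0.67. TEAD1 (ENSG00000187079, chromosome 11, 12695968 to 12966284, plus strand) was under 1 TPM in both libraries, at 0.64 and 0.35 TPM, so it passed no filter on low values and its log2 change of -0.28 rests on little signal. TEAD4 was 58.0 times TEAD1 in PLC-8024-CTR and 94.5 times in PLC-8024-GDF1.

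Added up, the TEAD genes went from 72.7 to 60.6 TPM, a log2 change of -0.26. TEAD4 made up 51.2% of the sum in PLC-8024-CTR and 54.8% in PLC-8024-GDF1. The summed TEAD level was 5.83 times the summed YAP1 and WWTR1 level in the control library and 13.7 times in the GDF1 library. TEAD2, TEAD3 and TEAD4 have a higher GC content than YAP1 and WWTR1 (given below), and sums have no GC-adjusted value. The part of GC content in this ratio was not tested. TEAD2 overlaps DKKL1 (3.03 and 4.79 TPM, no shared exonic bases) and CD37 (0.51 and 1.20 TPM, 319 shared exonic bases), both on the opposite strand. With DKKL1 added to TEAD2 the log2 change was 0.03, and with CD37 added it was -0.04.

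LATS1 (ENSG00000131023, chromosome 6, 149979289 to 150039241, minus strand), one of the kinases that phosphorylate YAP and TAZ, had 2.20 TPM in the control library and 0.41 TPM in the GDF1 library. It fell by 1.18 on the log2 scale (plain TPM ratio 0.186), and 6.23% of all genes had a lower change. With the GC trend removed the log2 change of LATS1 was -0.76, within 2-fold. LATS2 (ENSG00000150457, chromosome 13, 21547175 to 21635725, minus strand), its paralog and itself a YAP target, had 1.76 and 1.06 TPM, a log2 change of -0.42.

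LATS1 was 1.25 times LATS2 in the control library and 0.387 times LATS2 in the GDF1 library. The summed LATS level went from 3.96 to 1.47 TPM, a log2 change of -1.01 that was -0.88 with rescaled TPM. The ratio of the summed coactivators to the summed LATS kinases was 3.15 in PLC-8024-CTR and 3.02 in PLC-8024-GDF1, since both sums were lower in the GDF1 library. The plot of class sums shows the changed makeup of both pairs beside the smaller change of the TEAD sum.

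**Figure D2:**
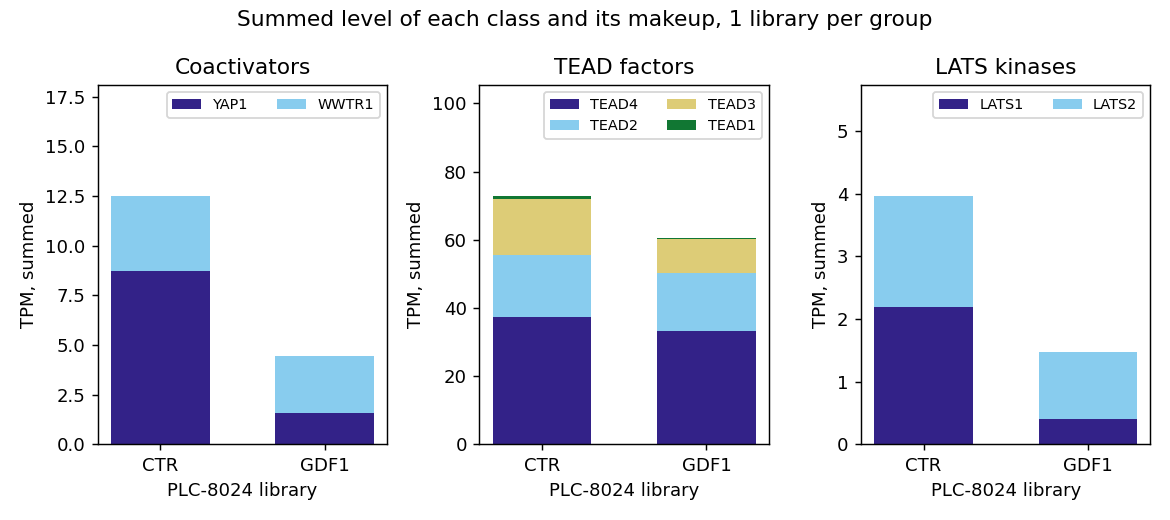
Summed TPM of the coactivators, the TEAD factors and the LATS kinases in the PLC-8024-CTR and PLC-8024-GDF1 libraries (bars from 0, 1 library each, no error known; the TPM axis differs between panels), with each gene as a segment. YAP1 makes up 69.9% of the first coactivator bar and 35.7% of the second, and LATS1 55.5% and 27.9% of the LATS bars.

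AJUBA (ENSG00000129474, chromosome 14, 23440386 to 23451760, minus strand) is a LIM-domain scaffold that binds LATS kinases at cell junctions. It was listed at 14.4 TPM for control and 2.87 TPM for GDF1 cells, a plain ratio of 0.199. Its log2 change of -1.99 was the lowest of the 10 genes, and 1.28% of all genes had a lower one. AMOTL2 (ENSG00000114019, chromosome 3, 134074189 to 134094321, minus strand), an angiomotin-family protein that binds YAP and activates LATS and is also induced by YAP, had 3.20 and 2.03 TPM. Its log2 change of -0.47 stayed within 2-fold.

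All 10 genes were lower in PLC-8024-GDF1 with TPM as deposited, where 63.3% of all genes were, while TEAD2 and TEAD4 were higher with rescaled TPM and WWTR1 with the GC trend removed. TEAD1 apart, 9 reached 1 TPM. Of these 9, 3 fell over 2-fold (YAP1, AJUBA and LATS1; 33.3%) and none rose, against 9.61% of the 14929 genes that fell and 4.82% that rose. Of all genes past 2-fold, 33.4% thus rose, a share that was 50.4% with rescaled TPM, where the same 3 of the 9 genes still passed. Over the 9 genes the log2 changes had a median of -0.47, and over all genes of -0.20. Relative to that median, YAP1 changed by -1.71, AJUBA by -1.80 and LATS1 by -0.98. In order of level the control library ran TEAD4, TEAD2, TEAD3, AJUBA, YAP1, WWTR1, AMOTL2, LATS1, LATS2 and TEAD1. In the GDF1 library YAP1 stood below WWTR1 and AMOTL2, and LATS1 below LATS2, with the other places kept. Without replicates, it cannot be said which neighbours in either order differ beyond their spread.

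None of the 100-base windows of the longest transcript of any of the 10 genes occurred in another of them, so long stretches shared between these paralogs were not found. The genes did differ in base composition. The longest transcripts of TEAD2, TEAD3 and TEAD4 had GC contents of 58.4%, 59.8% and 60.4%, those of WWTR1, TEAD1 and YAP1 had 42.2%, 43.0% and 43.5%, and LATS1 had the lowest, 39.0%. With all genes divided into 5 equal groups by GC content, the median log2 change was -0.45 in the lowest group and 0.11 in the highest. With this trend removed, AJUBA was at -1.84, YAP1 at -1.58 and TEAD4 at -0.18. The part of GC content in the differences was not tested further.

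**Figure D3:**
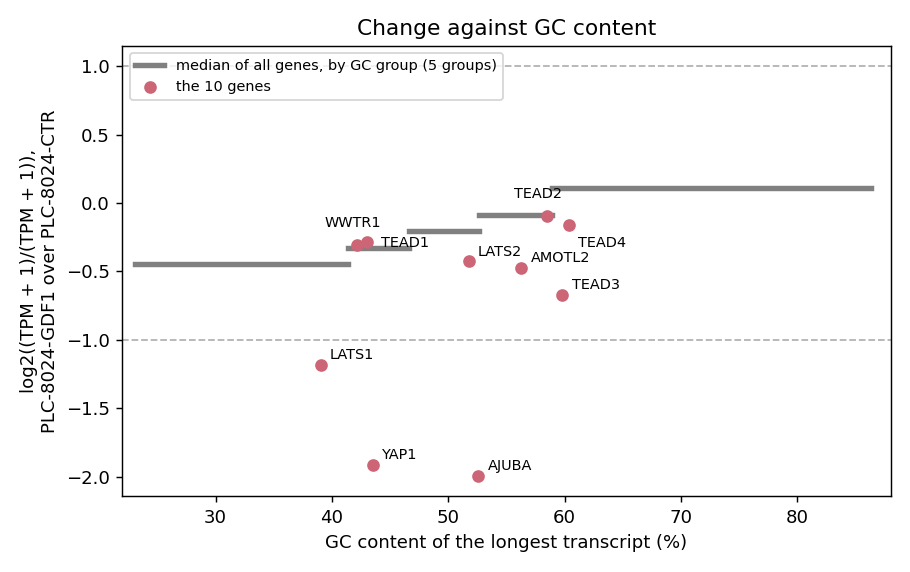
Log2 change of the 10 genes (points) against GC content (percent, longest transcript), with the median of all genes in each of 5 GC groups as grey bars and 2-fold as dashed lines. YAP1 (-1.91) and AJUBA (-1.99) lie far below the bar for their GC content, whereas WWTR1 and TEAD2 lie close to it.

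The other genes of the pathway were then described by role, from lists of 93 further genes, 77 of which reached 1 TPM. Of the 77, 6 fell over 2-fold (7.79%), a share close to the 9.61% of all genes that fell. Of the same 77, 1 rose, where 4.82% of all genes did. Their median log2 change was -0.48, against -0.20 over all genes and -0.47 over the 9 genes above that reached 1 TPM. Lower values in the GDF1 library, of any size, were found for 81.8% of the 77 and for 63.3% of all genes.

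Upstream of LATS, 17 of 20 listed kinases and adaptors had at least 1 TPM. Of these, 1 fell (5.88%) and 1 rose, against 9.61% and 4.82% of all genes. NF2 (merlin), a membrane-bound activator of LATS, fell by 1.97 on the log2 scale, from 12.1 to 2.35 TPM. MAP4K3, a kinase able to phosphorylate LATS, rose by 1.07 on the same scale, from 0.62 to 2.41 TPM. MAP4K2, of the same family, had 14.4 and 29.3 TPM, and its log2 change of 0.98 passed 2-fold with rescaled TPM (1.18). The core kinases STK3 and STK4 (MST2 and MST1) had 3.85 and 2.56 TPM, and 5.43 and 2.93 TPM. Their scaffold SAV1 had 5.18 and 2.66 TPM, and the LATS cofactors MOB1A and MOB1B had 16.4 and 9.63 TPM, and 2.64 and 1.35 TPM. These 5 core genes had log2 changes between -0.76 (SAV1) and -0.45 (STK3), within 2-fold.

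Among the LATS and YAP inhibitors and scaffolds, none of the 6 genes with at least 1 TPM passed 2-fold, where 9.61% of all genes fell and 4.82% rose. VGLL4, which competes with YAP for TEAD, had 17.8 and 19.0 TPM. The AMOTL2 paralogs AMOT (0.58 and 0.33 TPM) and AMOTL1 (0.71 and 0.51 TPM) were under 1 TPM in both libraries, which left AMOTL2 as the highest angiomotin gene in each. The AJUBA paralog LIMD1 had 8.29 and 3.89 TPM, a log2 change of -0.93. None of the 7 genes for 14-3-3 proteins, the 6 for degradation of YAP and TAZ, or the 13 of the STRIPAK phosphatase complex, which removes phosphate from the MST kinases, passed 2-fold. Their median log2 changes were -0.59, -0.31 and -0.53, each lower than the -0.20 over all genes, of which 9.61% fell and 4.82% rose.

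Of 15 polarity and junction genes with at least 1 TPM, 2 fell (13.3%, against 9.61% of all genes). CDH1 (E-cadherin) had 10.4 and 0.33 TPM, and its log2 change of -3.10 was the lowest among the listed pathway genes. Like YAP1, AJUBA and NF2, CDH1 also passed 2-fold after rescaling and after removal of the GC trend.

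Transcriptional targets of YAP and TAZ were taken from a 22-gene list that includes AMOTL2 and LATS2. Of the other 20 genes, 14 had at least 1 TPM, of which 3 fell (21.4%, against 9.61% of all genes) and none rose, with a median log2 change of -0.60 (-0.20 over all genes). By the plain TPM ratio, an alternative chosen for this list after seeing the data, 5 of the 14 fell, against 16.1% of all genes, CCN2 (0.493) and ASAP1 (1.19 and 0.19 TPM, ratio 0.158) being the further ones. GADD45A, a stress-response gene, fell from 21.7 to 6.71 TPM (log2 change -1.56), F3 (tissue factor) from 5.47 to 1.37 TPM (-1.45) and MYOF (myoferlin) from 7.42 to 2.25 TPM (-1.38). The textbook targets stayed within 2-fold. CCN2, whose promoter is printed above, had 34.5 TPM in the control library and 17.0 TPM in the GDF1 library, and its log2 change of -0.98 lay just inside the limit. CCN1 had 15.9 and 9.75 TPM (-0.65) and AXL had 2.95 and 1.69 TPM (-0.55). ANKRD1 was listed at the value that stands for 0 in the control library and at 0.71 TPM in the GDF1 library. Of the 14 genes, 12 were lower in the GDF1 library, and FJX1 (1.18 and 2.34 TPM) and PTPN14 (0.96 and 1.07 TPM) were higher. Among the lower ones NT5E and DOCK5 had log2 changes of -0.12 and -0.003, which became 0.07 and 0.17 with rescaled TPM.

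**Figure D4:**
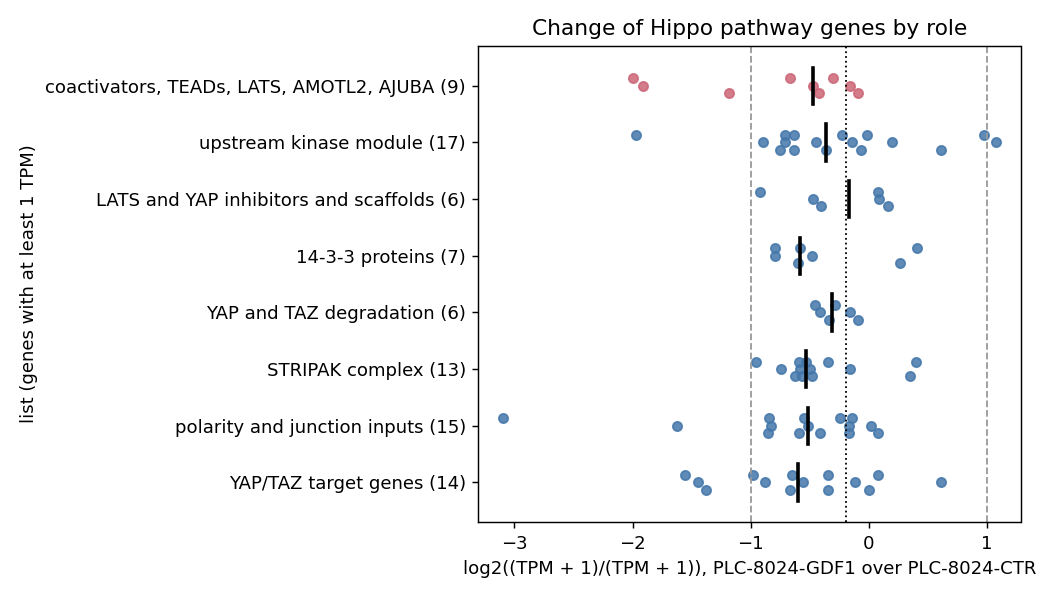
Log2 change between the GDF1 and control libraries (negative where GDF1 is lower) for each gene that reached 1 TPM, by role (number of genes in brackets), with black bars for list medians, dashed lines at 2-fold and a dotted line at the median of all genes (-0.20). Red points are the coactivators, TEADs, LATS kinases, AMOTL2 and AJUBA; CDH1 (-3.10) and NF2 (-1.97) are the lowest of the blue points, and PTPN14 stands in both the inhibitor and the target list.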

How the data were processed

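RNA-seq of 1 PLC-8024-CTR and 1 PLC-8024-GDF1 library was analysed, grouped by sample title. The authors filtered reads with Trimmomatic 0.36, aligned them to hg19 with HISAT2 2.1.0, quantified them with StringTie 1.3.3b and deposited TPM values per gene, with 0.0001 or less in place of 0. Their methods name a RefSeq annotation, while the deposited tables carry Ensembl identifiers. TPM summed to 999990 and 999995, and holds no depth, so precision is unknown and no test was made.

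The genes, lists and rules were chosen with earlier results of these data known. Named genes were the 10 members, GDF1, CERS1, listed genes past 2-fold, 13 listed genes whatever their change, and genes overlapping a member. Others were chosen after their values were seen, and 1 single-gene value is not reported here. Positions, exons and GC content came from GENCODE v44 on GRCh37 (55726 identifiers matched). CCN1 and CCN2 are CYR61 and CTGF in the deposited tables. Alternatives were pseudocounts, filters, TPM rescaled by 1.15 so that the median log2 ratio was 0, and a GC trend removed by lowess (span 0.3). Scripts in Python 3.11.15 with pandas 2.3.3 and statsmodels 0.14.6 were tested on simulated data.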

Additional observations from a re-analysis of the deposited data

How the results depend on the processing

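No paired analysis was possible because each group has 1 library. The count of the 10 genes past 2-fold was 3 with TPM as deposited, with either other pseudocount setting, with rescaled TPM, with no filter and with protein-coding genes only. It was 2 with the GC trend removed (LATS1 then within 2-fold, at -0.76) and 2 with at least 5 TPM, a filter that leaves out LATS1. Under every setting they fell. The direction reversed for TEAD2 (0.10) and TEAD4 (0.039) with rescaled TPM, which multiplies each GDF1 value by 1.15, and for WWTR1 (0.062) with the GC trend removed, and the cause of the last was not tested. The count over all genes, 2154, became 3482 with a pseudocount of 0.1 TPM and 3547 with the plain TPM ratio, and that of listed pathway genes, 7, became 14 with both, since a smaller pseudocount enlarges the change of low genes. Of all genes past 2-fold 33.4% rose, against 50.4% with rescaled TPM and 51.0% with the GC trend removed. The sum of YAP1 and WWTR1 stayed past 2-fold and that of the TEAD genes within it under each pseudocount and scaling; sums have no GC-adjusted value. The summed LATS level, an alternative chosen after seeing the data, was within 2-fold with rescaled TPM (-0.88). TPM without depth limits LATS1, LATS2 and TEAD1 most, since they are near or under 1 TPM.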
